A study of Sus scrofa with 14 samples.

Results

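The cytosolic aminoacyl-tRNA synthetases and the amino acid program of the transcription factor ATF4 were read out in bulk RNA sequencing of pig (Sus scrofa) knee tissue and cells. The members were taken by symbol from the deposited count table, where a synthetase could carry a final 1 and the row with most reads was kept for a repeated symbol. Of 35 listed genes 34 were found among the 25880 genes of the table, namely 17 synthetases and 17 genes of the ATF4 program. The alanyl-tRNA synthetase AARS had no symbol in the table, so it is not counted as a member, and its values are given apart, under the name that a reference table pairs with its Ensembl identifier. All 34 members were tested, and a member's reads in a library ranged from 61 to 33942.

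There were 5 groups in 14 libraries, all from skeletally mature female pigs of a slaughterhouse: femoral cartilage of full thickness (n = 3), inner zone medial meniscus tissue (n = 3), outer zone medial meniscus tissue (n = 3), and meniscus cells grown in monolayer to the third passage (P3) from the inner zone (n = 3) and from the outer zone (n = 2). Tissue explants spent 3 days in culture before RNA was taken. Tissue and cells were kept in the same high glucose medium with serum, non-essential amino acids, added proline and ascorbate. The supply of amino acids that reached the cells in explants and in monolayer was not reported. The cells had been freed with pronase and collagenase and did not come from the animals that gave the tissue, tissue RNA passed through a freezer mill and TRIzol before the column while cell RNA went to the column directly, and these differences cannot be told apart from that between tissue and cells. The methods describe an explant of each zone from every meniscus, so inner and outer zone tissue share menisci. The labels number the samples without saying what a number marks, and of the tissue numbers 2 and 3 occur in both zones, 5 in the inner and 6 in the outer zone alone. The model treats the libraries as separate samples, and the p-values below measure the spread between them.

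An aminoacyl-tRNA synthetase joins an amino acid to its transfer RNA, and each is named by the letter of its amino acid, so that WARS charges the tRNA of tryptophan. When amino acids run short or unfolded protein accumulates in the endoplasmic reticulum, kinases phosphorylate the initiation factor eIF2alpha, general translation falls and the mRNA of ATF4 is translated more, so the mRNA level of ATF4 does not report its protein. ATF4 with a C/EBP partner binds a short element and, in human and mouse cells, raises genes for amino acid synthesis, amino acid import and tRNA charging. In cartilage and meniscus, tissues made largely of collagen, the supply of glycine and proline for matrix protein also runs through these enzymes.

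The core of that element, written TGATGNAA, was searched on both strands around the RefSeq gene starts of the pig assembly Sscrofa11.1. From 250 bases before to 50 bases after the start, 6 of 34 members held a match (17.6%), against 546 of 19559 protein-coding genes (2.8%). From 500 bases before to 500 bases after it, a window added after the first had been seen, the numbers were 14 of 34 (41.2%) and 1828 of 19559 (9.3%). The matches shown here, in capitals within 30 bases of genome sequence, are those of the narrow window and of 3 picked from the members whose match lay farther out. They are shown to let the element be read beside the response of each gene.
CHAC1, chr1:130363479-130363508, strand +: accttgaggagTGATGCAAcggcgggggag
PCK2, chr7:75197732-75197761, strand +: ccccctgcacaTGATGTAActttgaggact
SLC7A11, chr8:88608026-88608055, strand +: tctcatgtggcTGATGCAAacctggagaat
SLC7A11, chr8:88608045-88608074, strand -: cggctggatgaTGATGCAAattctccaggt
CARS, chr2:2163324-2163353, strand +: ttcccagaatcTGATGCAAccaccgccccg
YARS, chr6:89118787-89118816, strand -: acgagctcagcTGATGCAAcctaactggac
TARS, chr16:19455308-19455337, strand -: ctcgtgccagcTGATGCAAtaggaaagcgc
IARS, chr3:42022523-42022552, strand +: acggcctgaggTGATGCAAtgttctgaaag
TRIB3, chr17:34819500-34819529, strand +: tccggcccgggTGATGTAAacctgagctaa
DDIT3, chr5:22790114-22790143, strand +: gggggcggggaTGATGCAAtgtttggcaac

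The N of the element was C in 8 of these 10 sequences and T in PCK2 and TRIB3. Among the members whose match is not printed, it was A in GARS, T in PHGDH and C in EPRS, PYCR1 and PSPH. Counted to the first base of the match along the gene's strand, the match of CHAC1 lay 165 bases and that of PCK2 137 bases before the gene start, the pair of SLC7A11 lay 46 and 27 bases before it, and those of TARS, YARS and CARS lay 26, 33 and 37 bases after it. Matches of IARS, TRIB3 and GARS lay 70, 75 and 83 bases after the start, and those of EPRS, PYCR1 and PSPH farther inside the gene. Those of DDIT3 and PHGDH lay 265 and 373 bases before the start. A match in these letters is a description and not a bound site, and for members without one, such as ASNS, PSAT1, SHMT2, MTHFD2 and WARS, it says only that these letters are not in the window. AARS held a match 99 bases before its start.

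**Figure D1:**
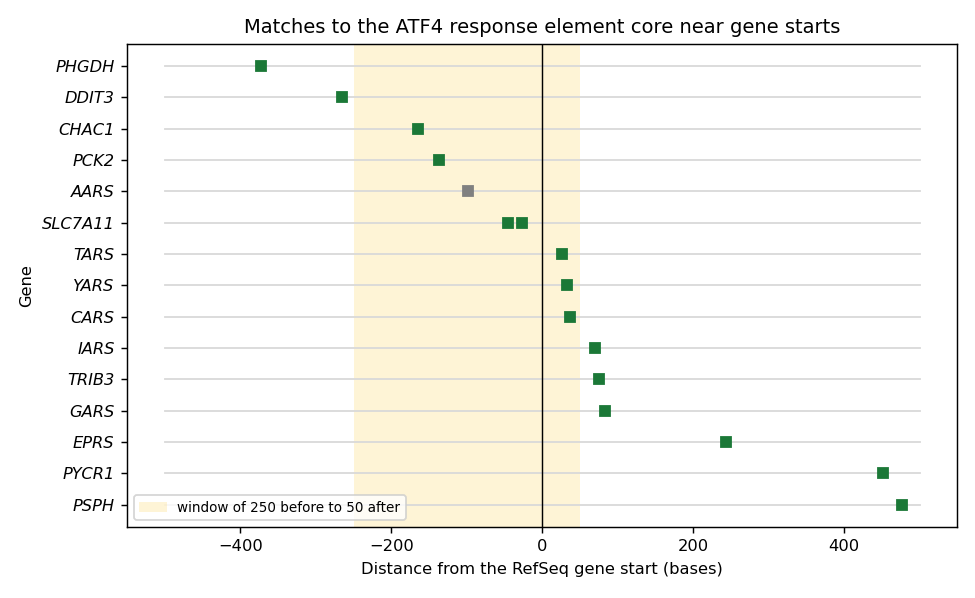
Position of each match to the core element relative to the RefSeq gene start (x axis, bases, negative before the start) for the 14 members with a match within 500 bases (green) and for AARS (grey); the shaded band marks the window of 250 bases before to 50 after. The matches of 6 members fall inside the band.

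Levels are TMM-scaled CPM values, that is, a gene's reads relative to the scaled total of its library, and log2 fold changes come from edgeR's quasi-likelihood test in a single model of the 14 libraries, with Benjamini-Hochberg adjustment over 15707 tested genes. Called genes had an adjusted p under 0.01 and differed by more than 2-fold, and some counts are also given for an adjusted p under 0.01 at any fold. Library totals ranged from 24440213 to 43304412 reads. In bulk RNA a smaller share of a cell type and less RNA per cell cannot be told apart.

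Before the comparisons, a property of the outer zone P3 cells has to be given. Replicate 147 lay below replicate 148 in 31 of 34 members, with a median log2 ratio of -0.45, while 47.7% of all tested genes were lower in it. The cells' summed level of 5 serine, glycine and one-carbon enzymes was 408 CPM in replicate 147 and 709 CPM in replicate 148. With 2 libraries in this group, the passaging values of the outer zone below are therefore also given without replicate 148 where that ends a call. Among the tissues, outer zone replicate 2 had 141 CPM of 9 endothelial marker genes against 761 and 368 CPM in replicates 3 and 6. ERG gave 123 CPM of the sum in tissue replicate 2, and VWF read 0 CPM there against 82.3 and 25.7 CPM in replicates 3 and 6. Tissue replicate 2 lay below replicate 3 in 23 and below replicate 6 in 20 of 34 members, where 50.6% and 50.8% of all tested genes lay below.

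The group with the highest mean was inner zone P3 cells for 26 of 34 members, cartilage for 6 and outer zone P3 cells for 2. The lowest mean was in cartilage for 18 members, in outer zone tissue for 13, in inner zone P3 cells for 2 and in outer zone P3 cells for 1. Inner zone tissue was at neither end for any member. The 17 synthetases summed to 2372 to 3017 CPM in cartilage, 2141 to 2504 CPM in inner zone tissue, 1873 to 2177 CPM in outer zone tissue, 3572 to 4512 CPM in inner zone P3 cells and 3097 to 4049.6 CPM in outer zone P3 cells. Their summed level in every P3 library was thus above that in every tissue library.

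Levels of different genes were compared per kilobase of RefSeq exon length, which may differ from the annotation the reads were counted on. In cartilage ATF4 had the highest level of the members at 505 CPM per kb, followed by KARS at 419 CPM per kb, and SLC7A11 the lowest at 0.743 CPM per kb. In inner zone P3 cells ATF4 stood at 299.7 CPM per kb, GARS at 263 CPM per kb, SARS at 194 CPM per kb and KARS at 178 CPM per kb. Of the 17 member synthetases KARS, for lysine, thus had the most abundant mRNA per length in cartilage and came after GARS and SARS in inner zone P3 cells, where AARS, at 181 CPM per kb, also lay above it.

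**Figure D2:**
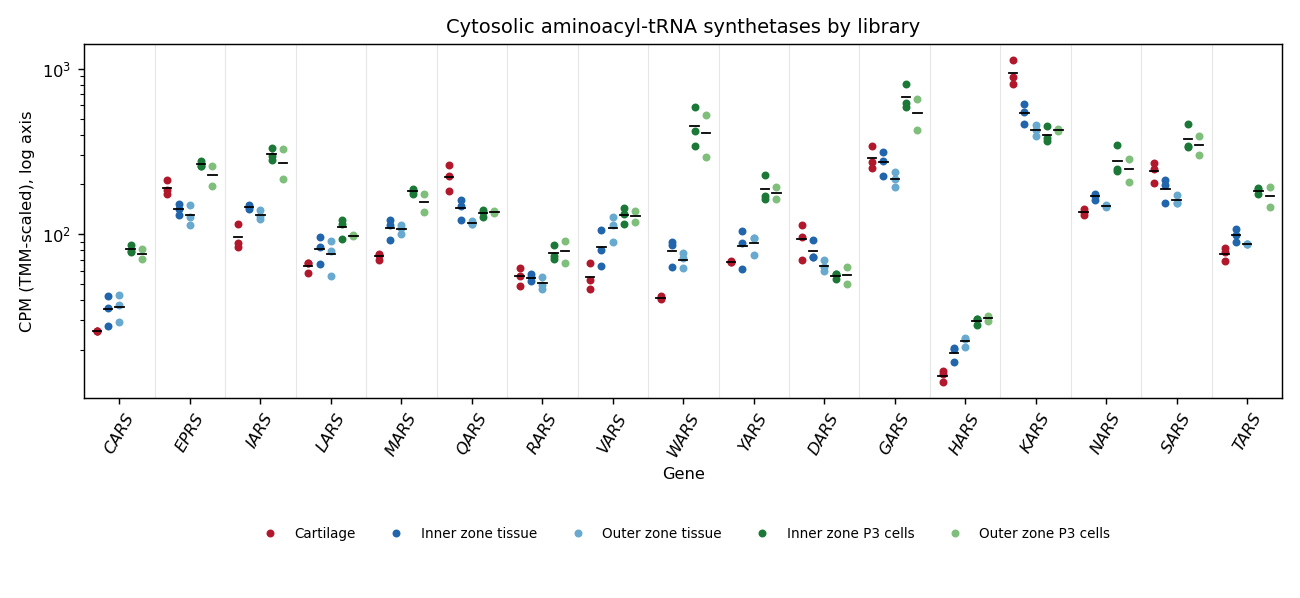
Level of each of the 17 synthetases (y axis, TMM-scaled CPM on a log axis) in every library, with points coloured by group and short black lines at the group means. WARS stands at 40.4 to 41.9 CPM in cartilage and at 294 to 589 CPM in P3 cells, while KARS runs the other way from cartilage to P3 cells.

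The first question was how meniscus cells at P3 differed from tissue of their own zone. Most members were higher in the cells, and none was called lower. In the inner zone 15 of 34 members were called higher and 0 lower, where 25.7% of all tested genes were called and 13.6% were called higher. In the outer zone the numbers were also 15 and 0 of 34, where 16.7% of all tested genes were called and 8.36% were called higher. The 15 are 44.1% of the members, and they were the same 15 genes in both zones: CARS, GARS, IARS, SARS, WARS, YARS, CHAC1, SESN2, TRIB3, PSAT1, PSPH, SHMT2, MTHFD2, ASNS and PCK2. These comparisons share no library, but the tissue zones share menisci and cell numbers recur in both zones. A single model also set the spread for both, so they are not independent repeats. At p under 0.05 without adjustment, 27 members were higher and 2 lower in the inner zone, and 27 higher and 0 lower in the outer zone. Of 15707 tested genes 9108 and 7605 had such a p in either direction. DESeq2's test called 0 members lower in either zone. At any fold 22 members rose in each zone, 20 of them in both, and 0 fell, beside 20.1% and 12.9% of all genes that rose. The median log2 fold change of the 34 members was 0.90 in the inner and 0.93 in the outer zone, that of all tested genes 0.015 and -0.012.

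Among the 17 synthetases, 6 were called higher in each zone, and 12 in the inner and 11 in the outer zone rose at any fold. WARS had the largest change of the members in both zones. Its mRNA is induced by interferon gamma in human cells. It read 63.2, 89.6 and 85.8 CPM in inner zone tissue against 343, 419 and 589 CPM in inner zone P3 cells, and 62.1, 76.6 and 71.8 CPM in outer zone tissue against 294 and 525 CPM in outer zone P3 cells. This was a log2 fold change of 2.50 ± 0.24 (SE) in the inner zone (adjusted p = 5.3e-06) and 2.54 ± 0.26 in the outer zone (adjusted p = 2.0e-05). Each P3 library exceeded the highest tissue library of its zone more than 3-fold, and inner zone replicate 149 and outer zone replicate 148 were the highest.

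The glycyl-tRNA synthetase GARS, whose gene supplies both the cytosol and mitochondria, read 226, 278 and 312 CPM in inner zone tissue against 584, 618 and 809 CPM in inner zone P3 cells, and 194, 237 and 216 CPM in outer zone tissue against 428 and 657 CPM in outer zone P3 cells. Its change was 1.30 ± 0.20 (SE) in the inner zone (adjusted p = 1.7e-04) and 1.33 ± 0.22 in the outer zone (adjusted p = 5.1e-04) on the log2 scale. No P3 library overlapped the tissue of its zone, and outer zone replicate 147 was the lowest of the cells. CARS, the cysteinyl-tRNA synthetase, read 27.9, 42.1 and 35.8 CPM in inner zone tissue against 78.6, 77.9 and 85.8 CPM in inner zone P3 cells, and 29.3, 42.8 and 37.1 CPM in outer zone tissue against 70.9 and 80.9 CPM in outer zone P3 cells. The log2 fold change came to 1.20 ± 0.16 (SE) in the inner zone (adjusted p = 5.2e-05) and 1.06 ± 0.17 in the outer zone (adjusted p = 4.8e-04), and the cells lay close together at about the same level in both zones. YARS, for tyrosine, read 61.9, 104 and 88.2 CPM in inner zone tissue against 164, 169 and 227 CPM in inner zone P3 cells, and 75.1, 94.3 and 94.9 CPM in outer zone tissue against 162 and 194 CPM in outer zone P3 cells, which gave changes of 1.14 ± 0.19 (SE) in the inner zone (adjusted p = 2.6e-04) and 1.01 ± 0.20 in the outer zone (adjusted p = 0.00194). Inner zone tissue was the more scattered side here, with replicate 2 lowest and replicate 3 highest.

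IARS, the isoleucyl-tRNA synthetase and a part of the multisynthetase complex, read 141, 150.2 and 146 CPM in inner zone tissue against 298, 282 and 332 CPM in inner zone P3 cells, and 123, 139.7 and 129 CPM in outer zone tissue against 214 and 326 CPM in outer zone P3 cells. Its log2 fold change was 1.06 ± 0.16 (SE) in the inner zone (adjusted p = 1.7e-04) and 1.05 ± 0.18 in the outer zone (adjusted p = 6.4e-04), with tightly grouped tissue libraries and a wide gap between the 2 outer zone cell libraries. SARS, for serine, read 154, 211 and 198 CPM in inner zone tissue against 339, 335 and 461 CPM in inner zone P3 cells, and 155, 173 and 154 CPM in outer zone tissue against 299 and 390.4 CPM in outer zone P3 cells. Its change was 1.01 ± 0.18 (SE) in the inner zone (adjusted p = 4.4e-04) and 1.10 ± 0.19 in the outer zone (adjusted p = 8.0e-04), and all cell libraries were above all tissue libraries. AARS, the alanyl-tRNA synthetase kept apart from the members, read 181, 236 and 225 CPM in inner zone tissue against 531, 587 and 768 CPM in inner zone P3 cells, and 173, 203 and 172 CPM in outer zone tissue against 411 and 642 CPM in outer zone P3 cells. This was a log2 fold change of 1.55 ± 0.19 (SE) in the inner zone (adjusted p = 2.9e-05) and 1.53 ± 0.21 in the outer zone (adjusted p = 1.3e-04), so it passed the same call.

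Several of these calls ended when a single library was left out. Without inner zone tissue replicate 2 the log2 fold changes of YARS and SARS in the inner zone were 0.94 and 0.87, and without inner zone P3 replicate 149 those of YARS, SARS and IARS were 0.98, 0.84 and 0.99, which ended their calls. Without outer zone P3 replicate 148 the outer zone values were 0.99 for GARS, 0.96 for CARS, 0.88 for YARS, 0.71 for IARS and 0.90 for SARS, which ended all 5 calls and left that of WARS at 2.07. Leaving out outer zone tissue replicate 2 ended those of CARS and YARS, at 0.93 and 0.91.

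Another 6 synthetases rose by less than 2-fold. TARS, for threonine, rose by 0.90 and 0.97 on the log2 scale in the inner and the outer zone, EPRS, which charges both glutamate and proline, by 0.91 and 0.80, NARS, for asparagine, by 0.72 and 0.74, MARS, for methionine, by 0.73 and 0.54, and RARS, for arginine, by 0.49 and 0.64. HARS, for histidine, rose by 0.65 ± 0.11 in the inner zone (adjusted p = 4.4e-04), and its outer zone value of 0.45 ± 0.13 missed the threshold (adjusted p = 0.0129). The other 5 passed in neither zone, at 0.64 ± 0.20 and 0.23 ± 0.22 for VARS, 0.43 ± 0.18 and 0.38 ± 0.20 for LARS, -0.10 ± 0.14 and 0.22 ± 0.16 for QARS, -0.44 ± 0.16 and 0.00 ± 0.18 for KARS and -0.49 ± 0.17 and -0.18 ± 0.19 for DARS. These charge valine, leucine, glutamine, lysine and aspartate. The rise of the synthetases was thus uneven, from above 5-fold in WARS to estimates below 0 for DARS, KARS and QARS in the inner zone.

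DARS, EPRS, IARS, KARS, LARS, MARS, QARS and RARS are the members that sit in the mammalian multisynthetase complex, a grouping made after their values had been seen. Of these 8, 1 was called in each zone and 4 rose at any fold, with a median log2 fold change of 0.46 in both. Of the 9 synthetases outside the complex 5 were called in each zone, 8 in the inner and 7 in the outer zone rose at any fold, and the median was 1.01 in both. No test of that difference was made. MARS and DDIT3 lie on opposite strands of chromosome 5 and share 69 bases at their ends, and the strand setting of the counting is not given in the sources used here, so a few of their reads may not be told apart.

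**Figure D3:**
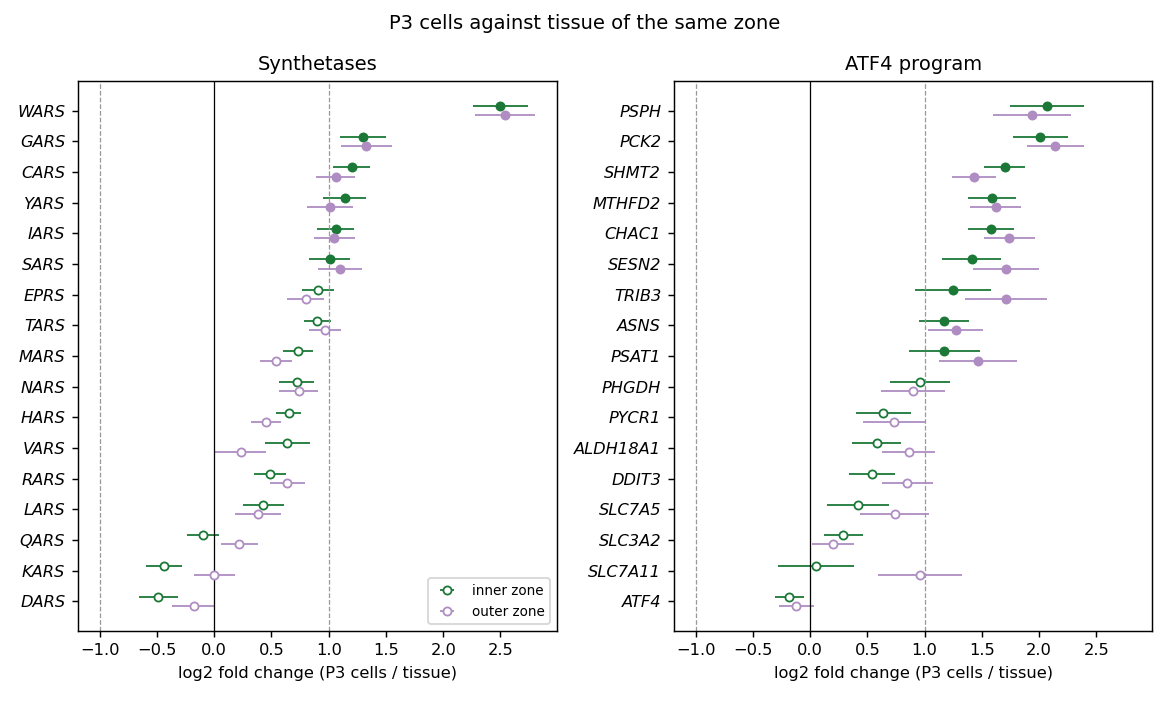
Log2 fold change of P3 cells against tissue of the same zone (x axis) for the synthetases (left) and the other members (right), with bars of 1 SE, filled points for called genes and dashed lines at 2-fold. The same 15 genes are filled in both zones, WARS lies farthest right and ATF4 lies just below 0 in both.

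ATF4 itself, the transcription factor of the program, was not among the genes that rose. It read 703, 716 and 743 CPM in inner zone tissue against 641, 666 and 599 CPM in inner zone P3 cells, and 641, 665 and 547 CPM in outer zone tissue against 527 and 607 CPM in outer zone P3 cells. The log2 fold change came to -0.18 ± 0.13 (SE) in the inner zone (adjusted p = 0.278) and -0.12 ± 0.15 in the outer zone (adjusted p = 0.546), so no change of its mRNA was called, while 3 of the 4 other stress regulators in the list were called higher in both zones. CHAC1, an enzyme that degrades glutathione and a widely used ATF4 target, read 29.9, 39.1 and 47.1 CPM in inner zone tissue against 107, 131 and 110.0 CPM in inner zone P3 cells, and 30.7, 26.5 and 22.6 CPM in outer zone tissue against 72.8 and 104 CPM in outer zone P3 cells. Its change was 1.58 ± 0.20 (SE) in the inner zone (adjusted p = 3.8e-05) and 1.74 ± 0.22 in the outer zone (adjusted p = 8.6e-05), and the cell libraries of each zone lay well above the tissue.

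SESN2, a leucine sensor that holds back the growth kinase complex mTORC1, read 26.99, 48.1 and 40.2 CPM in inner zone tissue against 95.2, 107 and 104 CPM in inner zone P3 cells, and 20.9, 32.2 and 17.9 CPM in outer zone tissue against 57.8 and 96.7 CPM in outer zone P3 cells. Its log2 fold change was 1.41 ± 0.26 (SE) in the inner zone (adjusted p = 6.8e-04) and 1.71 ± 0.29 in the outer zone (adjusted p = 5.9e-04). TRIB3, a pseudokinase induced by ATF4 and DDIT3, read 29.7, 70.3 and 47.1 CPM in inner zone tissue against 108, 111 and 130.4 CPM in inner zone P3 cells, and 24.2, 42.2 and 21.03 CPM in outer zone tissue against 75.00 and 116 CPM in outer zone P3 cells, which gave 1.25 ± 0.33 (SE) in the inner zone (adjusted p = 0.0064) and 1.71 ± 0.36 in the outer zone (adjusted p = 0.00241). In both genes tissue libraries differed up to about 2-fold or more among themselves and still lay below the cells. DDIT3, the stress factor CHOP, read 37.9, 41.5 and 49.1 CPM in inner zone tissue against 57.1, 60.05 and 69.3 CPM in inner zone P3 cells, and 31.1, 30.4 and 24.3 CPM in outer zone tissue against 42.4 and 60.4 CPM in outer zone P3 cells. It rose by 0.85 ± 0.22 in the outer zone (adjusted p = 0.00932) and its inner zone value was 0.54 ± 0.20 (adjusted p = 0.0401), both under 2-fold.

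The serine pathway makes serine from a glycolytic intermediate in 3 steps, run by PHGDH, PSAT1 and PSPH in that order, and SHMT2 and MTHFD2 then pass its carbon to glycine and folate in mitochondria. Of these 5 enzymes 4 were called higher in both zones. PSPH, the last step, read 9.56, 7.95 and 13.5 CPM in inner zone tissue against 42.5, 43.2 and 44.4 CPM in inner zone P3 cells, and 10.6, 4.75 and 12.2 CPM in outer zone tissue against 27.6 and 42.95 CPM in outer zone P3 cells. This was a log2 fold change of 2.07 ± 0.32 (SE) in the inner zone (adjusted p = 1.5e-04) and 1.94 ± 0.34 in the outer zone (adjusted p = 7.2e-04). PSAT1, the aminotransferase in the middle, read 83.9, 145 and 89.8 CPM in inner zone tissue against 204, 246 and 269 CPM in inner zone P3 cells, and 59.7, 81.6 and 49.2 CPM in outer zone tissue against 99.4 and 251 CPM in outer zone P3 cells. Its change was 1.17 ± 0.31 (SE) in the inner zone (adjusted p = 0.00694) and 1.47 ± 0.34 in the outer zone (adjusted p = 0.0046), with outer zone cells replicate 147 just above the tissue and replicate 148 far above it.

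PHGDH, the entry step, read 18.9, 22.98 and 36.05 CPM in inner zone tissue against 51.1, 51.7 and 48.8 CPM in inner zone P3 cells, and 16.6, 16.4 and 12.98 CPM in outer zone tissue against 19.1 and 38.2 CPM in outer zone P3 cells. It rose by 0.96 ± 0.26 in the inner zone (adjusted p = 0.00743), under 2-fold, and its outer zone value was 0.90 ± 0.28 (adjusted p = 0.0235). The entry enzyme was thus the one of the 3 that missed the call. SHMT2 read 74.2, 103 and 103 CPM in inner zone tissue against 264, 291 and 359 CPM in inner zone P3 cells, and 86.2, 96.2 and 100.4 CPM in outer zone tissue against 214 and 293 CPM in outer zone P3 cells, with a log2 fold change of 1.70 ± 0.18 (SE) in the inner zone (adjusted p = 8.8e-06) and 1.43 ± 0.19 in the outer zone (adjusted p = 1.3e-04). MTHFD2 read 26.7, 24.9 and 32.2 CPM in inner zone tissue against 76.05, 84.4 and 92.4 CPM in inner zone P3 cells, and 18.7, 20.6 and 25.3 CPM in outer zone tissue against 48.01 and 84.4 CPM in outer zone P3 cells, with 1.59 ± 0.21 (SE) in the inner zone (adjusted p = 4.6e-05) and 1.62 ± 0.22 in the outer zone (adjusted p = 1.6e-04). Both mitochondrial enzymes were above tissue in every cell library, and both kept the call in each zone when any single library was left out.

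ASNS makes asparagine from aspartate and glutamine, and PCK2 makes phosphoenolpyruvate in mitochondria. ASNS read 97.3, 127 and 152 CPM in inner zone tissue against 278, 281 and 289 CPM in inner zone P3 cells, and 81.6, 94.7 and 94.7 CPM in outer zone tissue against 143 and 293 CPM in outer zone P3 cells. The log2 fold change came to 1.17 ± 0.22 (SE) in the inner zone (adjusted p = 7.6e-04) and 1.27 ± 0.24 in the outer zone (adjusted p = 0.00135), and the 3 inner zone cell libraries agree within a few percent whereas the 2 of the outer zone differed about 2-fold. PCK2 read 32.8, 37.1 and 56.3 CPM in inner zone tissue against 148, 175 and 184 CPM in inner zone P3 cells, and 26.8, 27.5 and 29.4 CPM in outer zone tissue against 83.7 and 163 CPM in outer zone P3 cells. Its change was 2.01 ± 0.24 (SE) in the inner zone (adjusted p = 2.2e-05) and 2.14 ± 0.25 in the outer zone (adjusted p = 6.0e-05), among the largest of the members, and its call held with any single library left out. ALDH18A1 and PYCR1, which turn glutamate into proline, were not called: ALDH18A1 rose by 0.86 ± 0.23 in the outer zone (adjusted p = 0.00968) and gave 0.58 ± 0.21 in the inner zone (adjusted p = 0.0302). PYCR1 gave 0.64 ± 0.24 and 0.73 ± 0.27 (adjusted p = 0.0428 and 0.046).

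The 3 transporters did not pass in either zone. SLC7A11, the cystine importer, read 26.7, 43.7 and 41.4 CPM in inner zone tissue against 36.9, 42.5 and 36.2 CPM in inner zone P3 cells, and 15.7, 19.5 and 16.04 CPM in outer zone tissue against 24.1 and 42.2 CPM in outer zone P3 cells, and its log2 fold change was 0.05 ± 0.33 (SE) in the inner zone (adjusted p = 0.92) and 0.96 ± 0.37 in the outer zone (adjusted p = 0.0568). SLC7A5, which carries leucine and other large amino acids, gave 0.42 ± 0.27 and 0.74 ± 0.30, and their shared partner chain SLC3A2 0.29 ± 0.17 and 0.20 ± 0.18. For SLC7A11 inner zone tissue and cells overlapped, while the outer zone cells lay above the outer zone tissue.

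For the outer zone calls, leaving out replicate 147 or 148 left 1 cell library in the group. A call could then end with its estimate still over 2-fold. Without outer zone P3 replicate 148, 5 of the 15 calls there stayed, those of WARS, CHAC1, PCK2, SHMT2 and MTHFD2, and without replicate 147 there were 17 calls. The values without replicate 148 were 0.65 for PSAT1, 0.66 for ASNS, 1.29 for SESN2, 1.36 for TRIB3 and 1.59 for PSPH. PSAT1 also lost its outer zone call without tissue replicate 2 or 6, at 1.42 and 1.31, and TRIB3 without tissue replicate 6, at 1.52. In the inner zone PSAT1 and TRIB3 lost it without tissue replicate 2 or 5 or any 1 of the 3 cell libraries, over ranges of 1.01 to 1.46 and 0.97 to 1.60 with any single library left out, and ASNS without tissue replicate 2, at 1.00.

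Members with a match to the element within 500 bases of the start were called higher in 8 of 14 cases and those without in 7 of 20, in each zone. At any fold 11 of 14 and 11 of 20 rose. The median log2 fold change was 1.10 with and 0.65 without a match in the inner zone, and 1.03 and 0.69 in the outer zone. These counts were not tested. CHAC1 and PCK2, whose sequences are printed above, were among the strongest responders, SLC7A11, with a pair of matches, was not called in either zone, and WARS, with the largest change, had no match.

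**Figure D4:**
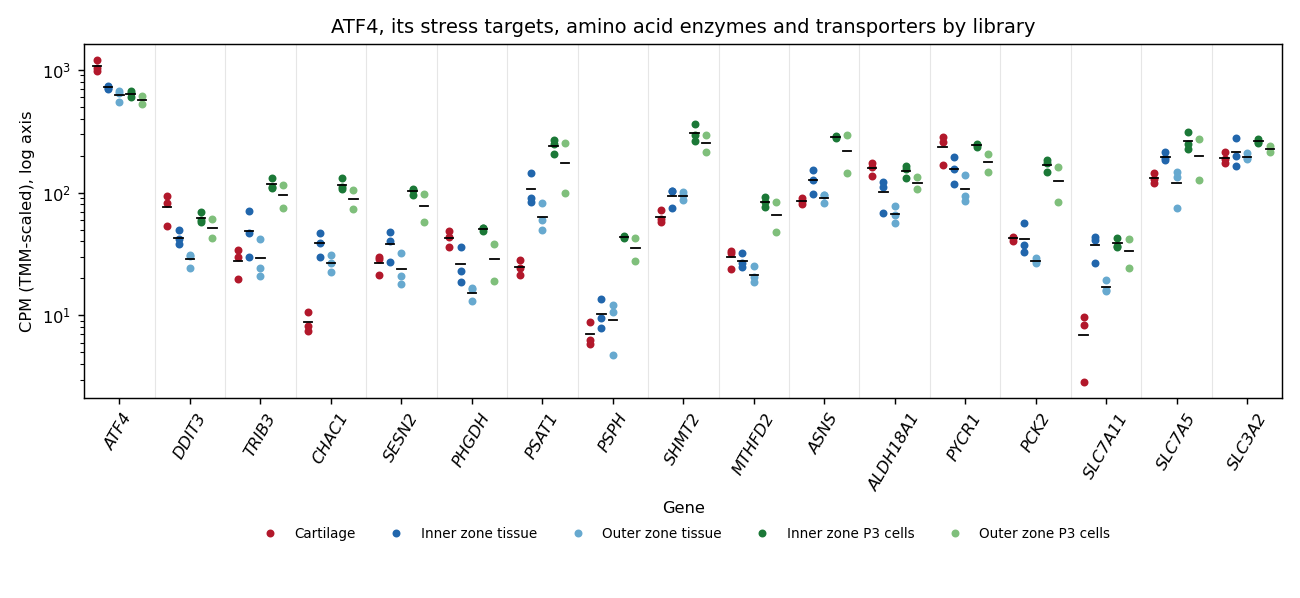
Level of ATF4 and the 16 other members of its program (y axis, TMM-scaled CPM on a log axis) in every library, with points coloured by group and short black lines at the group means. ATF4 is highest in cartilage at 981 to 1198 CPM, while CHAC1, PSAT1, PSPH and PCK2 are highest in P3 cells.

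The next question was how meniscus tissue differed from cartilage. Here the members went both ways. Inner zone tissue had 3 members called higher and 0 lower, where 9.05% of all tested genes were called, 4.45% higher and 4.6% lower. Outer zone tissue had 2 called higher and 5 lower, where 15.1% of all tested genes were called, 8.56% higher and 6.5% lower. At any fold 5 rose and 4 fell in the inner zone, beside 16.7% of all genes, and 5 rose and 8 fell in the outer zone, beside 25.3%. The 3 and 7 called are 8.82% and 20.6% of the members, so the first share is near that of all genes. Without adjustment 8 members were lower in the inner zone at p under 0.05, beside 6465 of 15707 tested genes in either direction. The Wald test called 0 members lower there. Both comparisons used the same cartilage libraries, so their values are set side by side only.

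CHAC1 and PSAT1 were called higher in both zones. CHAC1 read 10.6, 8.26 and 7.41 CPM in cartilage, 29.9, 39.1 and 47.1 CPM in inner zone tissue and 30.7, 26.5 and 22.6 CPM in outer zone tissue. Its log2 fold change was 2.14 ± 0.21 (SE) in the inner zone (adjusted p = 3.6e-05) and 1.60 ± 0.21 in the outer zone (adjusted p = 1.4e-04), and every meniscus library was above every cartilage library. PSAT1 read 24.5, 28.2 and 21.5 CPM in cartilage, 83.9, 145 and 89.8 CPM in inner zone tissue and 59.7, 81.6 and 49.2 CPM in outer zone tissue. Its change was 2.11 ± 0.32 (SE) in the inner zone (adjusted p = 5.9e-04) and 1.36 ± 0.32 in the outer zone (adjusted p = 0.00466). The outer zone call of PSAT1 was lost without cartilage replicate 1, 2 or 3 or outer zone tissue replicate 3, over a range of 1.14 to 1.52 with any single library left out. SLC7A11, the cystine importer, read 8.30, 9.65 and 2.88 CPM in cartilage, 26.7, 43.7 and 41.4 CPM in inner zone tissue and 15.7, 19.5 and 16.04 CPM in outer zone tissue, with a log2 fold change of 2.42 ± 0.36 (SE) in the inner zone (adjusted p = 4.8e-04) and 1.30 ± 0.35 in the outer zone (adjusted p = 0.011). All meniscus libraries exceeded all cartilage libraries for it, and cartilage replicate 3 was the lowest of all.

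ATF4 mRNA fell in both zones against cartilage, by under 2-fold. It read 1032, 981 and 1198 CPM in cartilage, 703, 716 and 743 CPM in inner zone tissue and 641, 665 and 547 CPM in outer zone tissue. This was a log2 fold change of -0.57 ± 0.14 (SE) in the inner zone (adjusted p = 0.0072) and -0.79 ± 0.14 in the outer zone (adjusted p = 7.1e-04), and the groups did not overlap. DDIT3 read 53.2, 81.7 and 92.9 CPM in cartilage, 37.9, 41.5 and 49.1 CPM in inner zone tissue and 31.1, 30.4 and 24.3 CPM in outer zone tissue. Its change was -0.82 ± 0.20 (SE) in the inner zone (adjusted p = 0.00886) and -1.41 ± 0.21 in the outer zone (adjusted p = 2.8e-04), and it passed the call in the outer zone. Stress factors of one list thus stood on opposite sides, with CHAC1 higher and ATF4 and DDIT3 lower in meniscus than in cartilage.

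PHGDH, ALDH18A1 and PYCR1 were called lower in the outer zone. PHGDH read 36.4, 43.2 and 49.1 CPM in cartilage, 18.9, 22.98 and 36.05 CPM in inner zone tissue and 16.6, 16.4 and 12.98 CPM in outer zone tissue. The log2 fold change came to -0.72 ± 0.26 (SE) in the inner zone (adjusted p = 0.0504) and -1.48 ± 0.26 in the outer zone (adjusted p = 9.2e-04), opposite in sign to PSAT1, the enzyme of the following step. For ALDH18A1 the levels were 135, 175 and 162 CPM in cartilage, 122, 67.9 and 111 CPM in inner zone tissue and 77.2, 65.4 and 56.3 CPM in outer zone tissue, which gave -0.65 ± 0.21 (SE) in the inner zone (adjusted p = 0.0303) and -1.25 ± 0.21 in the outer zone (adjusted p = 6.2e-04). For PYCR1 they were 169, 281 and 256 CPM in cartilage, 155, 118 and 194 CPM in inner zone tissue and 140.0, 84.8 and 94.1 CPM in outer zone tissue, which gave -0.60 ± 0.24 (SE) in the inner zone (adjusted p = 0.0818) and -1.15 ± 0.25 in the outer zone (adjusted p = 0.00284). The outer zone libraries lay below all cartilage libraries for these 3 genes. The call of PYCR1 was lost without cartilage replicate 2 or 3 or outer zone tissue replicate 3 or 6, with values from -1.40 up to the 2-fold line.

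Of the 17 synthetases KARS alone was called against cartilage, and it was lower, in the outer zone. It read 805, 892 and 1129.6 CPM in cartilage, 549, 462 and 614 CPM in inner zone tissue and 390.3, 456 and 429 CPM in outer zone tissue. Its log2 fold change was -0.80 ± 0.16 (SE) in the inner zone (adjusted p = 0.00302) and -1.15 ± 0.16 in the outer zone (adjusted p = 2.3e-04), and without cartilage replicate 3 the outer zone value was -0.99, which ended the call. QARS fell by under 2-fold in both zones, at -0.63 ± 0.14 and -0.93 ± 0.14 (adjusted p = 0.00529 and 3.6e-04), and EPRS in the outer zone at -0.55 ± 0.14 (adjusted p = 0.00856). MARS rose in both, by 0.58 and 0.55, WARS in the inner zone by 0.95 and VARS and HARS in the outer zone by 0.99 and 0.70. AARS showed 0.09 ± 0.19 and -0.14 ± 0.19 and passed in neither.

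**Figure D5:**
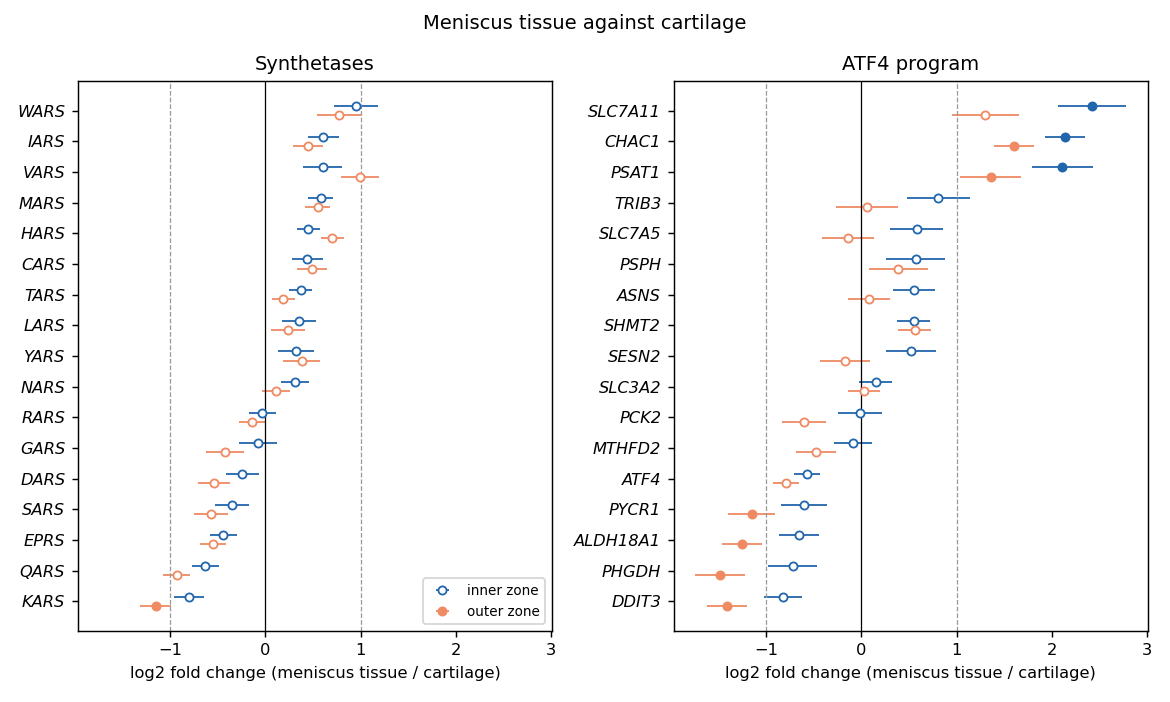
Log2 fold change of meniscus tissue against cartilage (x axis) for the synthetases (left) and the other members (right), with bars of 1 SE, filled points for called genes and dashed lines at 2-fold. CHAC1, PSAT1 and SLC7A11 lie to the right, and KARS, DDIT3, PHGDH, ALDH18A1 and PYCR1 are filled on the left in the outer zone.

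Between the zones no member was called. In tissue, 0 of 34 passed edgeR's test of outer against inner zone, where 0.0318% of all tested genes were called. Without adjustment 12 members had a p under 0.05, all lower in the outer zone, beside 3181 of 15707 tested genes in either direction. DESeq2's Wald test called 0 members. In all 29 of 34 members had a lower estimate in the outer zone, beside 7568 of 15707 tested genes, with a median log2 difference of -0.26 against 0.009 for all genes. SLC7A11 came nearest at -1.12 ± 0.34 (adjusted p = 0.112), followed in size by PHGDH at -0.76 ± 0.26, TRIB3 at -0.75 ± 0.33 and PSAT1 at -0.74 ± 0.31. These intervals do not show that the zones are alike. Since the zones share menisci, the fit with the replicate number as a block is given beside this one: it also called 0 of 34 members, and among all genes it called 89 in place of 5.

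Among P3 cells 0 of 34 passed the edgeR test of outer against inner zone, where 0% of all genes were called. Without adjustment 1 member had a p under 0.05, lower in the outer zone, beside 505 of 15707 tested genes in either direction. The Wald test of DESeq2 called 0 members. Estimates were lower in the outer zone for 29 of 34 members, beside 7828 of 15707 tested genes, with a median of -0.22 against 0 for all genes. The count of 29 members rested on replicate 147, the lower of the outer zone pair, and without it 19 of 34 estimates were lower, with a median of -0.01. With the replicate number as a block 0 members and 14 of all genes were called. The test of whether the change with passaging differed between zones called 0 of 34 members with edgeR and 0 with DESeq2, where 0% of all genes were called. At an unadjusted p under 0.05 there were 0 members, beside 1173 of 15707 tested genes. The widest difference in change was that of SLC7A11, at 0.91 ± 0.50 (adjusted p = 0.703), and for WARS it was 0.04 ± 0.34 and for ATF4 0.06 ± 0.20.

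Against cartilage the P3 cells differed most. Inner zone P3 cells had 20 members called higher and 1 lower, where 32.5% of all tested genes were called, and outer zone P3 cells 18 and 1, where 31.2% were called. The called members are 61.8% and 55.9% of the 34. The median log2 fold change of the members was 1.23 and 1.12, that of all genes 0.048 and 0.03. CHAC1 led at 3.72 ± 0.22 and 3.34 ± 0.23, then WARS at 3.46 ± 0.25 and 3.32 ± 0.26 and PSAT1 at 3.28 ± 0.34 and 2.83 ± 0.35. KARS was the 1 called lower, at -1.24 ± 0.16 and -1.14 ± 0.19, the latter -0.99 and no longer called without cartilage replicate 3. ATF4 fell by under 2-fold, at -0.75 ± 0.14 and -0.92 ± 0.15 (adjusted p = 3.9e-04 and 2.9e-04). Without outer zone P3 replicate 148 the outer zone count was 13 in place of 19.

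Genes of neighbouring pathways were listed apart from the members, and these lists were also made with earlier results known. Of 17 mitochondrial synthetases 2 were called higher in inner zone and 1 in outer zone P3 cells against tissue, with medians of 0.45 and 0.25. Of all tested genes 13.6% and 8.36% were called higher, so these counts are near the background. WARS2, the mitochondrial partner of WARS, read 8.00, 7.74 and 8.40 CPM in inner zone tissue against 21.1, 19.95 and 16.9 CPM in inner zone P3 cells, and 7.65, 7.02 and 8.59 CPM in outer zone tissue against 20.8 and 19.5 CPM in outer zone P3 cells. This was a log2 fold change of 1.26 ± 0.15 (SE) in the inner zone (adjusted p = 2.9e-05) and 1.38 ± 0.17 in the outer zone (adjusted p = 7.1e-05), and cells and tissue did not overlap. SARS2, the mitochondrial partner of SARS, was the other call of the inner zone, at 1.09 ± 0.26, and it was lost without tissue replicate 2 or 3 or cell replicate 148 or 149, over a range of 0.92 to 1.37 with any single library left out. Of 4 tested cytosolic subunits and scaffold proteins 1 was called in the inner zone, AIMP2, a scaffold of the multisynthetase complex, at 1.01 ± 0.21 (adjusted p = 0.00148), and its outer zone value was 0.92 ± 0.23 (adjusted p = 0.00711). The inner zone call ended without tissue replicate 2 or cell replicate 149, at 0.92 and 0.81.

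Of 26 other genes of the ATF4 pathway, 5 were called higher and 1 lower in the inner zone and 6 higher in the outer zone, with medians of 0.22 and 0.34. In these comparisons 25.7% and 16.7% of all tested genes were called, and 13.6% and 8.36% were called higher. ALDH1L2, a mitochondrial folate enzyme, read 38.2, 68.1 and 59.6 CPM in inner zone tissue against 374, 393 and 405 CPM in inner zone P3 cells, and 48.3, 77.7 and 70.2 CPM in outer zone tissue against 298 and 432 CPM in outer zone P3 cells. The log2 fold change came to 2.82 ± 0.24 (SE) in the inner zone (adjusted p = 2.1e-06) and 2.48 ± 0.25 in the outer zone (adjusted p = 1.9e-05), larger than that of any member in the inner zone. EIF4EBP1, a repressor of cap-dependent translation, rose by 1.33 ± 0.14 and 1.28 ± 0.15, and the lipoprotein receptor gene VLDLR by 5.97 ± 0.75 and 5.24 ± 0.73. PYCR3, another proline enzyme, was the 1 called lower, at -1.01 ± 0.21, and no longer so without tissue replicate 3 or cell replicate 149, at -0.83 and -0.84. In outer zone tissue against cartilage 1 of the 26 was called higher and 5 lower, where 8.56% of all tested genes were called higher and 6.5% lower. The 5 lower included DDIT4 at -1.90 ± 0.34, XPOT at -1.05 ± 0.20 and GFPT1 at -1.03 ± 0.13. XPOT lost its call without cartilage replicate 2, and GFPT1 without cartilage replicate 2 or outer zone tissue replicate 3 or 6, at -0.88 and at -0.97 to -0.98.

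Upstream of ATF4, 1 of 11 kinases and phosphatase subunits of eIF2alpha was called in each zone of the passaging comparison, where 25.7% and 16.7% of all tested genes were called. In the inner zone it was PPP1R15A, the inducible phosphatase subunit, at 1.00 ± 0.17, a value at the 2-fold line, and in the outer zone EIF2AK4, the amino acid sensing kinase GCN2, at 1.04 ± 0.14. Both calls could end when a single library was left out. That of PPP1R15A was lost without tissue replicate 2 or cell replicate 148 or 149, over a range of 0.81 to 1.18 with any single library left out, and that of EIF2AK4 without outer zone P3 replicate 148, at 0.89, or outer zone tissue replicate 2, at 0.97. EIF2AK2, the kinase that senses double-stranded RNA, was called higher in both meniscus tissues against cartilage, at 1.30 ± 0.20 and 1.73 ± 0.20. Of 16 genes of the ATF6 and XBP1 arms of the endoplasmic reticulum response 2 were called higher in each zone in P3 cells, the sensors ATF6 at 1.54 ± 0.21 and 1.45 ± 0.23 and ERN1 at 1.60 ± 0.26 and 1.49 ± 0.29, the latter 1.24 and not called without outer zone P3 replicate 148. Of 12 other amino acid transporters 3 were called higher and 1 lower in the inner zone and 1 and 1 in the outer zone. SLC6A9, a glycine transporter, rose by 1.63 ± 0.20 and 1.53 ± 0.22, SLC36A1 and SLC7A6 rose in the inner zone by 1.45 ± 0.22 and 1.13 ± 0.16, and SLC7A2, for cationic amino acids, fell in both, at -4.26 ± 0.45 and -3.71 ± 0.53. Of 11 genes of mTORC1 and amino acid sensing 2 were called lower in the inner zone, SESN1 at -1.51 ± 0.25 and SESN3 at -1.65 ± 0.38, while SESN2 of the same family rose. In the outer zone 1 was called higher, RRAGC, a GTPase that recruits mTORC1 to lysosomes, at 1.16 ± 0.19, and 1 lower, SESN1 at -1.46 ± 0.29. SESN1 was not called there without cell replicate 147 or 148, at -1.61 and -1.32, and SESN3 not in the inner zone without tissue replicate 5, at -1.49.

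In meniscus tissue against cartilage, the called genes of these lists with the highest level were the following. AIMP2 was called higher in both zones at 1.19 ± 0.22 and 1.24 ± 0.22, the mitochondrial synthetase gene FARS2 at 1.29 ± 0.18 and 1.57 ± 0.18, CBS, which makes cystathionine from serine and homocysteine, at 1.47 ± 0.28 and 1.38 ± 0.28, and the transporters SLC6A9 at 1.54 ± 0.20 and 1.38 ± 0.20 and SLC1A4, for neutral amino acids, at 1.56 ± 0.21 and 1.34 ± 0.20. In the inner zone alone SLC7A2 passed at 2.20 ± 0.41 and the stress factor ATF3 at 1.70 ± 0.40, and in the outer zone alone the scaffold gene EEF1E1 at 1.35 ± 0.29, MARS2 at 1.55 ± 0.36 and, lower, ERN1 at -1.10 ± 0.26. The difference between zones was not called for any gene of these lists. Several of these calls were lost when a single library was left out, some with little change of the estimate. The call of CBS was lost without cartilage replicate 2 in both zones, at 1.40 and 1.30, and in the inner zone also without cartilage replicate 3, at 1.49. SLC7A2 lost it without cartilage replicate 3, at 2.14, and ATF3 without cartilage replicate 2 or 3 or inner zone tissue replicate 3, over a range of 1.30 to 2.08 with any single library left out. In the outer zone EEF1E1 lost it without cartilage replicate 1 or 3 or tissue replicate 6 (range 1.16 to 1.75), MARS2 without cartilage replicate 3 or tissue replicate 3 or 6 (range 1.21 to 2.06), and ERN1 without cartilage replicate 1 or 3 or tissue replicate 2 or 6 (range -1.37 to -0.98).

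Several sets of cell type markers also differed between P3 cells and tissue. A summed level of 9 chondrocyte markers was 54854 to 122722 CPM in cartilage, 16946 to 51742 CPM in inner zone tissue, 8302 to 21570.3 CPM in outer zone tissue and 841 to 1544 CPM in P3 cells. A set of 8 fibrous and myofibroblast markers summed to 4031 to 18820.5 CPM in the tissues and 160009 to 223858 CPM in P3 cells. COL1A1 stood at 71737 to 110523 CPM in P3 cells and at 4.88, 6.52 and 17.3 CPM in inner zone tissue. The paper reports it as higher in outer than in inner zone tissue, so the gap to the cells was smaller there. Against tissue of the same zone, 1 of these 8 markers had a lower estimate in the cells in each zone. In each zone 1 of the 9 chondrocyte markers had a higher one. For 9 markers of dividing cells, of which MCM5 had no reads, the sum was 14.7 to 27.3 CPM in cartilage, 43.6 to 69.7 CPM in inner zone tissue and 37.1 to 164 CPM in outer zone tissue. It was 166 to 316 CPM in inner zone and 117 and 182 CPM in outer zone P3 cells, so cells and tissue of the outer zone overlapped. A set of 8 smooth muscle and pericyte markers summed to 327 to 1410 CPM in the tissues and 313 to 821 CPM in P3 cells. Its members went both ways, with CNN1 higher and RGS5 lower in the cells. Endothelial markers (9 genes) summed to 83.9 to 117 CPM in cartilage, 102 to 172 CPM in inner zone tissue, 141 to 761 CPM in outer zone tissue and 43.6 to 58.4 CPM in P3 cells, with CDH5 at 0 in cartilage and at 0 in 4 of 5 P3 libraries. ERG gave most of the sum outside outer zone tissue. It read 73.6 to 96.99 CPM in cartilage, 92.8 to 161 CPM in inner zone tissue and 30.8 to 52.5 CPM in P3 cells. There were 10 macrophage markers, which summed to 43.8 to 125 CPM in the tissues and 15.8 to 18.3 CPM in P3 cells, where C1QB was at 0. CD14 alone read 39.7 to 66.6 CPM in the tissues and 14.7 to 16.6 CPM in P3 cells. C1QC read 9.89 and 15.8 CPM in outer zone tissue replicates 3 and 6 and at most 1.24 CPM in the other tissue libraries. The part of all these markers in the changes of the members was not tested.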

How the data were processed

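The deposited table used here holds raw counts per gene, which the authors obtained with HTSeq from reads that STAR placed at a single location of Sscrofa11.1, after Trim Galore and cutadapt. Libraries were made with a stranded mRNA kit, and tool versions and the strand setting of the counting are not given in the sources used here. The deposited DESeq2-normalized tables were not used. The 15707 genes whose reads over the 14 libraries came to 10 or more entered the test of edgeR 4.0.16 (R 4.3.3), TMM scaling, a mean per group in 1 quasi-likelihood model and Benjamini-Hochberg adjustment over all tested genes, and called at an adjusted p under 0.01 and over 2-fold. SE is the fold change divided by the root of F. On simulated counts the step found 75 to 85 of 100 planted 4-fold changes per comparison. These counts do not describe the recovery of changes near 2-fold. Groups came from the sample labels. Alternatives were median-of-ratios factors, DESeq2 1.42.0, other filters, glmTreat, smaller fits, a replicate block and each library left out. The cartilage, tissue and cell libraries hold 24440213 to 43304412 reads, so counting error is small beside the spread between replicates for most members. The members and all lists were chosen with earlier results of these data known. The text names every member and, from each other list except the markers, the called genes with the highest level, up to 3 per direction, for passaging and for tissue against cartilage. Gene starts, exon lengths and sequences are from RefSeq for Sscrofa11.1, matched by symbol for all 34 members and AARS.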

Additional observations from a re-analysis of the deposited data

How the results depend on the processing

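No called value changed direction under any alternative. Of the 306 estimates of the 34 members over 9 comparisons, 61 changed sign under at least 1 alternative, 47 of them between zones or in the interaction, and 0 of these had passed an adjusted p of 0.01. In the passaging comparisons they were SLC7A11 in the inner and KARS in the outer zone. Testing against the 2-fold line itself (glmTreat) left 4 of 15 members called for passaging in the inner zone (PCK2, WARS, PSPH and SHMT2) and 3 of 15 in the outer zone (PCK2, WARS and CHAC1), 0 of 7 for outer zone tissue against cartilage, and 12 of 21 and 7 of 19 for inner and outer zone P3 cells against cartilage. Fitting only the libraries compared gave 8 of 15 in the outer zone passaging comparison, where fewer samples set the spread. With any single library left out, the members called ranged from 3 to 4 for inner zone tissue and 5 to 8 for outer zone tissue against cartilage, from 10 to 15 and 5 to 17 for passaging in the inner and outer zone, and from 20 to 21 and 13 to 21 for inner and outer zone P3 cells against cartilage, and stayed at 0 between zones and for the interaction. The lowest counts came without outer zone P3 replicate 148 (5) and without inner zone tissue replicate 2 or P3 replicate 149 (10 each).

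The labels reuse some replicate numbers across groups without saying what a number marks, and at most 2 numbers are shared, so they were not taken to pair samples, although the methods have the tissue zones share menisci. With the number as a replicate block, 1 of 3 members stayed called for inner zone tissue and 3 of 7 for outer zone tissue against cartilage, and 0 were called between zones, where 89 of all genes were called in tissue in place of 5. Deviations of same-numbered samples correlated at 0.301 and 0.136 for inner and outer zone tissue, 0.195 and 0.242 for cells, and -0.101 to 0.013 for cartilage and meniscus. Differently numbered pairs of inner and outer zone tissue gave -0.232 to 0.15, a range that holds the 0.136. With 2 outer zone cell libraries, their deviations from the group mean are mirror images. The cell values therefore have counterparts of -0.195 and -0.242 by construction. Tissue and P3 cells share no number.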
